A study of Homo sapiens with 9 samples.

Results

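The levels of 9 chemotactic receptors were followed in THP-1 cells, a human leukaemia line of the monocyte lineage that grows in suspension. They are CCR1, CCR2, CX3CR1, CXCR4, GPR183, C5AR1, C3AR1, FPR1 and PTAFR, which make up 9 of the 18665 genes that the array annotation names. Every probe annotated to one of them was taken, 17 of the 48803 probes on the array, and each probe is described separately. RNA came from 3 states of the line, labelled fresh, frozen and replated, with 3 biological replicates per state according to the design text. All 9 arrays carried the same cell line, and the labels give neither a treatment nor a culture, freezing or thawing time. Whether the replicates were separate cultures or separate vials is not stated, so p-values measure the spread between these 9 samples. The genes were listed with the difference of CCR2 between frozen and fresh cells already known. For that reason CCR2 is described by its values with no p-value, counts of calls are given with and without it, and the frozen against fresh comparison is a description for all 9 genes. For the other 4 receptors with a probe bright enough to test (CCR1, CX3CR1, CXCR4 and GPR183), differences between replated cells and the other states carry adjusted p-values from limma, corrected over all 18102 probes tested. These comparisons use the fresh or frozen arrays that also chose the list, so their p-values are not independent of that choice.

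Chemotactic receptors are membrane proteins with a bundle of membrane-spanning helices that pass the binding of a chemoattractant to heterotrimeric G proteins, mostly of the Gi class. The G protein subunits then act on phosphoinositide 3-kinase, phospholipase C and small GTPases, which polarise the cell and drive it up the gradient. Receptor kinases, arrestins and RGS proteins end the signal. In monocytes CCR2 answers CCL2 and is known for release of monocytes from bone marrow and their entry into inflamed tissue, whereas CXCR4 answers CXCL12 and holds cells in the marrow. CX3CR1 binds the membrane-anchored chemokine CX3CL1, CCR1 binds CCL3 and CCL5, and GPR183 binds oxysterols. C5AR1 and C3AR1 bind complement fragments, FPR1 binds formylated bacterial peptides, and PTAFR binds platelet-activating factor.

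The promoters of CCR2, CXCR4 and GPR183 are shown because these are the receptors whose signal differed between states. Each sequence is the 250 bases before the outermost annotated start in RefSeq on GRCh38.p14, written 5′ to 3′ on the strand of the gene. Capitals mark matches to the AP-1 element TGACTCA, the PU.1 core GAGGAA, the TATA-box motif TATAAA, the CCAAT box and the Sp1 motif GGGCGG, searched on both strands. CCR2 lies on chromosome 3, CXCR4 on chromosome 2 and GPR183 on chromosome 13.
CCR2, chr3:46353861-46354110, plus strand: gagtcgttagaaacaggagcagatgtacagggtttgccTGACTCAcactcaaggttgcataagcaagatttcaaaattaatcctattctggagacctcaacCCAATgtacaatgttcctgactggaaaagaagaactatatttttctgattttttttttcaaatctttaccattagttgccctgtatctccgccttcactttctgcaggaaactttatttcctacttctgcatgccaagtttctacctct
CXCR4, chr2:136118150-136118399, minus strand: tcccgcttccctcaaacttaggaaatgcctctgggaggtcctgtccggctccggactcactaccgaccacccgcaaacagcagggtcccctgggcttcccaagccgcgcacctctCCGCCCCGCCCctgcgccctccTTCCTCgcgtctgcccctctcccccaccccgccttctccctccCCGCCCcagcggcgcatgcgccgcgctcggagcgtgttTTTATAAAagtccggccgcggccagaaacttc
GPR183, chr13:99307400-99307649, minus strand: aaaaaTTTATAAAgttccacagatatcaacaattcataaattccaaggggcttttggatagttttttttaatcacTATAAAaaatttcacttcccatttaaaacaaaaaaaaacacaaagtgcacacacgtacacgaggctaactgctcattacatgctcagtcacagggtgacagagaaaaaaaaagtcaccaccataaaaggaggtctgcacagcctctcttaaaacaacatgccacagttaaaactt
The CCR2 window held TGACTCA 212 bases before the start and CCAAT 149 bases before it, and its GC content was 38.8%. The CXCR4 window had a GC content of 68% and held GGGCGG on the reverse strand 135, 130 and 70 bases before the start. It also held GAGGAA on the reverse strand 113 bases before the start, and TATAAA on both strands, 32 and 30 bases before the start, as overlapping matches. The GPR183 window was AT-rich, with a GC content of 34.4%, and held TATAAA 243 and 175 bases before the start, with a match on the reverse strand at 245 that overlaps the first. Among 35116 promoter windows of the same length, TGACTCA occurred in 4.2%, GAGGAA in 23.6%, TATAAA in 10.7%, CCAAT in 32% and GGGCGG in 42.6%, and the median GC content was 58%. TGACTCA also occurred in the windows of C3AR1 and PTAFR, which were not detected on these arrays. A match describes letters in a window and says nothing of binding.

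CCR1, at 46201711 to 46208313 on chromosome 3, and CCR2, at 46354111 to 46360940, lie on the same chromosome with 145797 bases between them. GPR183, at 99294539 to 99307399 on the minus strand of chromosome 13, lies inside the span of UBAC2, which is transcribed from the plus strand. The coordinates are those of the GRCh38.p14 gene table. Probe sequences were not used here.

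A probe was called detected on an array when its detection p was under 0.05, and it was kept for testing when detected on at least 3 of the 9 arrays. On this rule 9 of the 17 receptor probes were kept, against 18102 of the 48803 probes on the array. The kept probes were 1 of 1 for CCR1, 2 of 5 for CCR2, 2 of 2 for CX3CR1, 2 of 3 for CXCR4 and 2 of 2 for GPR183. C5AR1, C3AR1, FPR1 and PTAFR, each with 1 probe, were not kept. The arrays had 16898 to 17679 probes detected, mean signals of 299.6 to 367.1 and a lowest detected signal of 67.7 to 76.9. The lowest mean signals were those of frozen replicate 2 (299.6) and frozen replicate 3 (320.3), and non-normalized signals are not adjusted for this.

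**Figure D1:**
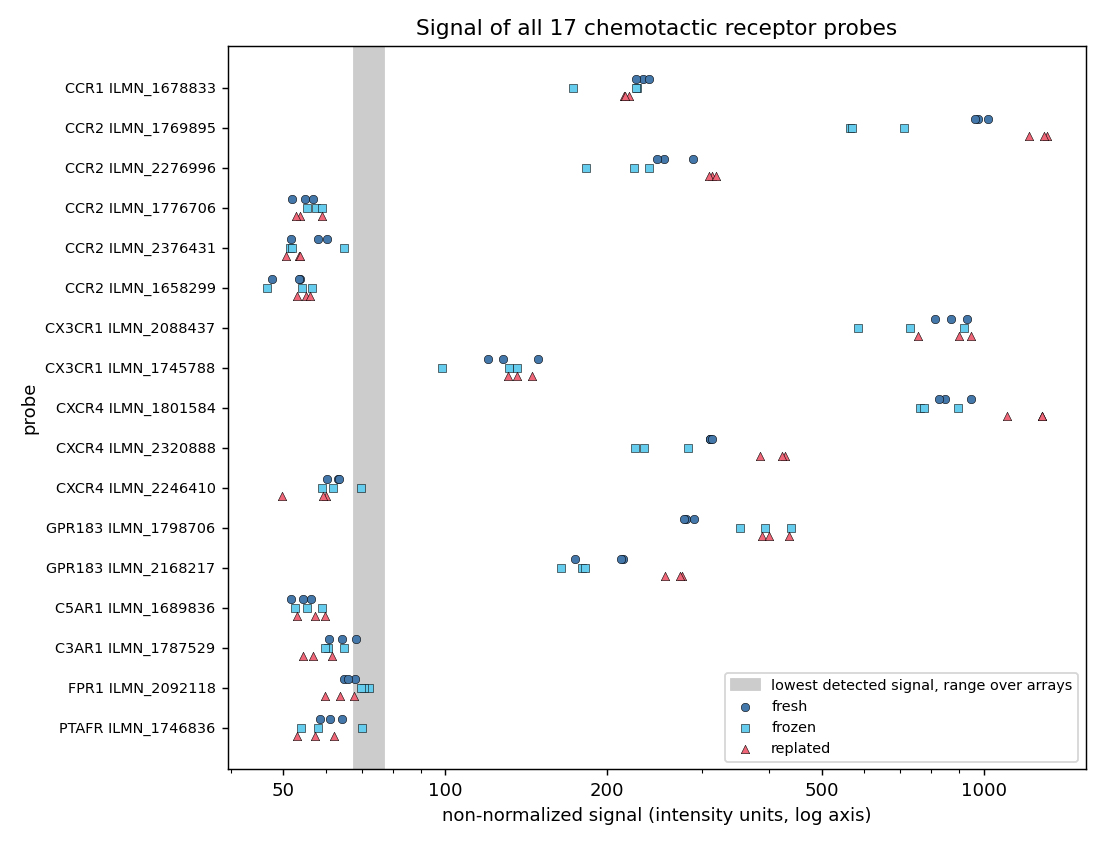
Non-normalized signal (linear intensity, log axis) of all 17 probes of the 9 receptor genes on each of the 9 arrays, coloured by state. The bright CCR2, CX3CR1 and CXCR4 probes stand far above the lowest detected signal of 67.7 to 76.9, drawn as a grey band, while the probes of C5AR1, C3AR1, FPR1 and PTAFR lie in the band or below it.

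CCR2 was lower in frozen cells than in fresh cells and higher in replated cells than in either. The non-normalized signal of its bright probe, ILMN_1769895, was 986.3 ± 30.3 in fresh cells, 615.2 ± 82.4 in frozen cells and 1271 ± 51.5 in replated cells (SD, n = 3 each). On the background-corrected, quantile-normalized log2 scale the 3 fresh arrays read 9.80, 9.85 and 9.80. The frozen arrays read 9.31, 9.29 and 9.21, and the replated arrays 10.32, 10.18 and 10.20. No array of any state overlapped with an array of another state. The SD of the 3 arrays on this scale was 0.030 for fresh cells, 0.055 for frozen cells and 0.077 for replated cells.

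The level of CCR2 on this probe was lower in frozen than in fresh cells by a log2 difference of -0.55 (SE 0.068, 95% interval -0.70 to -0.40), a 1.46-fold difference. Of the kept probes, 0.597% had a larger difference in that comparison, but CCR2 was listed with this difference already known. Replated cells were 0.42 above fresh cells on the log2 scale (SE 0.068, interval 0.27 to 0.57), or 1.34-fold, and 0.97 above frozen cells (interval 0.82 to 1.12), or 1.96-fold. In replated against frozen cells 0.293% of kept probes differed more. The frozen arrays that chose CCR2 enter there too, and nothing is read from either rank.

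The second kept CCR2 probe, ILMN_2276996, was dimmer and gave the same order of means. It read 7.79, 7.70 and 7.64 in fresh cells, 7.54, 7.40 and 7.69 in frozen cells, and 8.10, 8.03 and 8.01 in replated cells. The frozen arrays overlapped with the fresh arrays, and the difference of -0.16 had an interval of -0.35 to 0.02. Replated arrays lay above all others, by 0.34 (SE 0.084, interval 0.15 to 0.52) over fresh cells, or 1.26-fold, and by 0.50 over frozen cells, or 1.42-fold. The annotation ties both kept probes, with ILMN_2376431, to one RefSeq transcript of CCR2, and ILMN_1658299 and ILMN_1776706 to the other. The last 3 were detected on 0 of 9 arrays, with signals of 50.5 to 64.7, 46.7 to 56.6 and 52 to 59.1.

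CXCR4, the receptor for CXCL12, rose in replated cells on both of its kept probes. ILMN_1801584 read 9.68, 9.63 and 9.57 in fresh cells, 9.66, 9.74 and 9.66 in frozen cells, and 10.08, 10.28 and 10.18 in replated cells. Replated arrays thus lay above every other array, while fresh and frozen arrays overlapped. The rise was 0.55 over fresh cells (SE 0.073, interval 0.39 to 0.72, 1.47-fold, adjusted p = 0.00334 in limma) and 0.49 over frozen cells (SE 0.073, 1.41-fold, adjusted p = 0.00329 in limma).

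The dimmer CXCR4 probe, ILMN_2320888, is tied to a different transcript in the annotation. It read 7.90, 8.04 and 8.05 in fresh cells, 7.83, 7.85 and 7.70 in frozen cells, and 8.43, 8.57 and 8.47 in replated cells. Replated cells were higher by 0.49 than fresh cells (SE 0.076, 1.41-fold, adjusted p = 0.00726 in limma) and by 0.70 than frozen cells (SE 0.076, 1.62-fold, adjusted p = 0.000542 in limma). On this probe the frozen arrays also lay below the fresh arrays, by -0.20 (interval -0.37 to -0.04), whereas on ILMN_1801584 the frozen minus fresh difference was 0.06 (SE 0.073). That 0.06 turned to -0.07 when each array was centred on its median in place of quantile normalization. The third CXCR4 probe, ILMN_2246410, was detected on 0 of 9 arrays, with signals of 49.7 to 69.8.

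GPR183, the oxysterol receptor also called EBI2, rose in replated over fresh cells on both of its probes, which differed in frozen cells. ILMN_1798706 read 7.79, 7.86 and 7.85 in fresh cells, 8.55, 8.71 and 8.44 in frozen cells, and 8.45, 8.45 and 8.52 in replated cells. Fresh arrays were the low ones, and frozen and replated arrays overlapped. Frozen minus fresh was 0.73 (SE 0.077, interval 0.56 to 0.90), or 1.66-fold, and 0.204% of kept probes differed more. Nothing is read from that rank, since this contrast chose the list. Replated over fresh cells the rise was 0.64 (SE 0.077, 1.56-fold, adjusted p = 0.00201 in limma). Replated minus frozen was -0.09 (interval -0.26 to 0.08, adjusted p = 0.467 in limma).

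The other GPR183 probe, ILMN_2168217, read 7.27, 7.38 and 7.02 in fresh cells, 7.0, 7.39 and 7.09 in frozen cells, and 7.76, 7.85 and 7.75 in replated cells. Here fresh and frozen arrays overlapped, with a difference of -0.06 (SE 0.12), and replated arrays lay above both. The rise over frozen cells was 0.62 (SE 0.12, 1.54-fold, adjusted p = 0.0082 in limma), and over fresh cells 0.56 (SE 0.12, 1.48-fold, adjusted p = 0.0267 in limma). The call over fresh cells was lost, with adjusted p of 0.0627 to 0.0812 in limma, when fresh replicate 1 or 3 or any 1 of the 3 replated replicates was left out. It was also lost with the values processed by the authors (adjusted p = 0.0684).

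**Figure D2:**
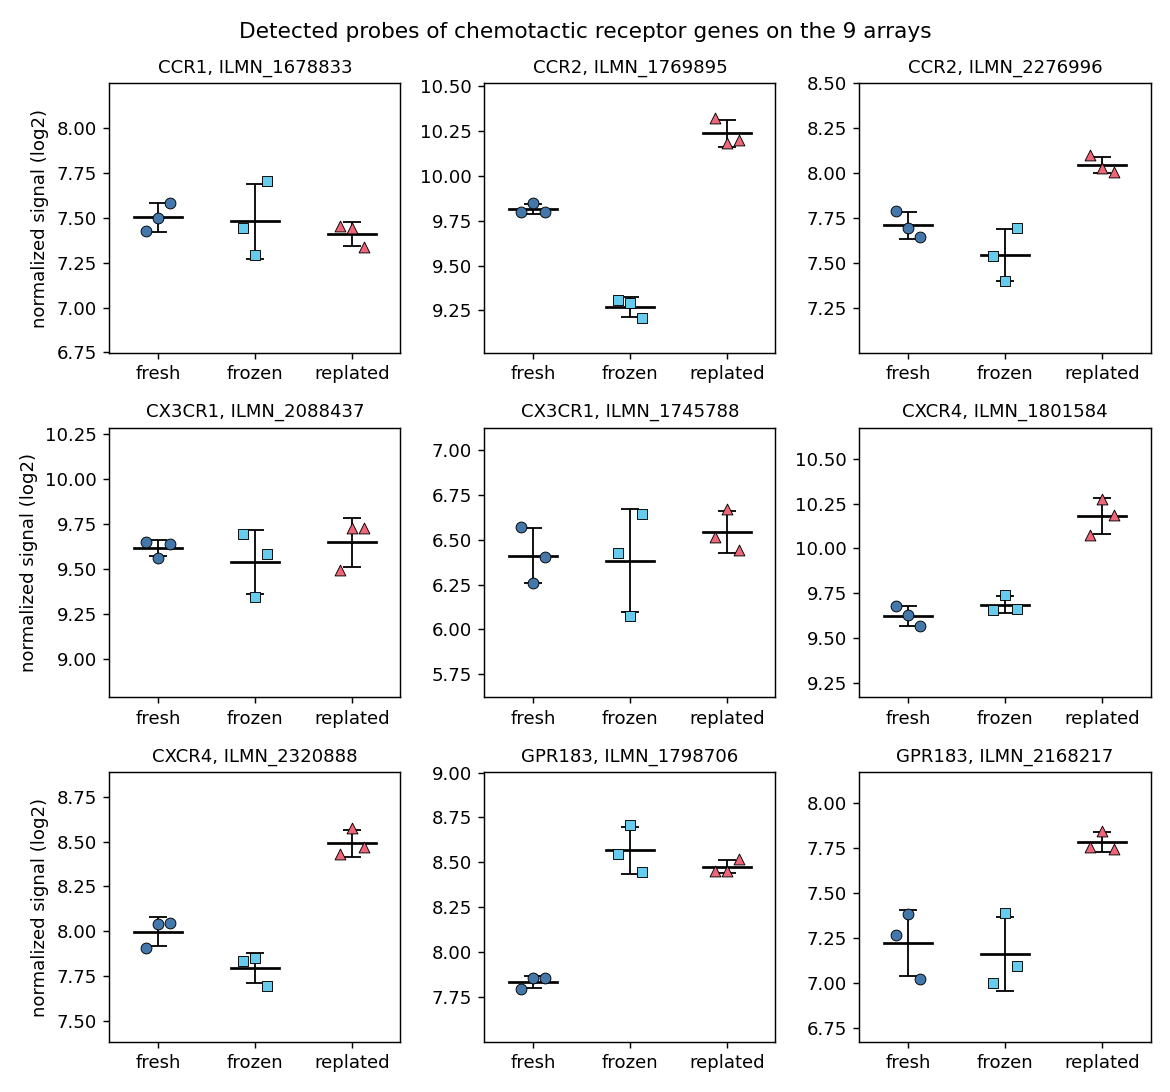
Normalized log2 signal of the 9 kept receptor probes on each array, by state, with points for arrays, horizontal lines for the mean of 3 arrays and error bars for 1 SD. The replated arrays lie above the other 6 on both CCR2 and both CXCR4 probes and on GPR183 ILMN_2168217, and the CCR1 and CX3CR1 arrays overlap between states.

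CCR1 and CX3CR1 did not pass the test in either comparison with replated cells. The single CCR1 probe read 7.42, 7.50 and 7.58 in fresh cells, 7.44, 7.29 and 7.70 in frozen cells, and 7.46, 7.44 and 7.34 in replated cells. All 3 states overlapped. Frozen minus fresh was -0.02 (interval -0.25 to 0.20), replated minus fresh -0.09 (interval -0.31 to 0.13, adjusted p = 0.675 in limma) and replated minus frozen -0.07 (interval -0.29 to 0.15, adjusted p = 0.699 in limma).

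The bright CX3CR1 probe, ILMN_2088437, read 9.65, 9.56 and 9.64 in fresh cells, 9.69, 9.34 and 9.58 in frozen cells, and 9.49, 9.73 and 9.73 in replated cells. Frozen replicate 2 was the lowest array, and the states overlapped. Differences from fresh cells were -0.08 in frozen cells (interval -0.30 to 0.14) and 0.03 in replated cells (interval -0.19 to 0.25, adjusted p = 0.895 in limma). Replated minus frozen was 0.11 (interval -0.11 to 0.33, adjusted p = 0.499 in limma). The dim CX3CR1 probe, ILMN_1745788, ranged from 6.08 to 6.67 over the 9 arrays. Its differences were -0.03 for frozen minus fresh (interval -0.33 to 0.27), 0.13 for replated minus fresh (interval -0.17 to 0.43, adjusted p = 0.65 in limma) and 0.16 for replated minus frozen (interval -0.14 to 0.46, adjusted p = 0.468 in limma). These intervals bound the differences and do not show the states to be alike.

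The receptors for complement fragments, formyl peptides and platelet-activating factor were not well above background. Signals ranged from 51.7 to 59.7 for C5AR1, from 54.5 to 68.2 for C3AR1 and from 53 to 69.9 for PTAFR, each detected on 0 of 9 arrays. FPR1 ranged from 59.7 to 72.3 and was detected on 1 array, a frozen one, with a detection p of 0.0329. No difference between states is given for these 4 genes.

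Counts of called receptor probes are given beside the share of all 18102 probes called, and probes of 1 gene share its RNA. That share also covers probes detected on fewer arrays than the 9 receptor probes. With only the 11951 probes of detection p under 0.01 on all 9 arrays tested, 366 were called in frozen against fresh cells. The count was 1199 in replated against fresh and 2522 in replated against frozen cells. Of the 9 receptor probes, CCR2 included, 2, 6 and 5 were called under that filter. With CCR2 left out, 7 kept probes remain. In replated against fresh cells 4 of these 7, from 2 genes, were called at an adjusted p under 0.05, all higher, where 4.13% of all probes were called, 2.22% higher and 1.91% lower. Against frozen cells, replated cells had 3 of 7 probes called, from 2 genes and all higher, where the background was 11.6%, with 6.25% higher and 5.32% lower. With CCR2, which was chosen on these arrays, each count was 5 of 9, and nothing is read from the added calls. In frozen against fresh cells 2 of 9 probes were called, 1 higher and 1 lower, beside a background of 1.02%, with 0.486% higher and 0.53% lower, and nothing is read from that count since this contrast chose the list. Both comparisons with fresh cells share the fresh arrays, and both with replated cells share the replated arrays. The fresh and frozen arrays also chose the list, so leaving out CCR2 does not make these counts independent of that choice.

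In frozen against fresh cells, 3 of 9 receptor probes had no overlap between arrays of the 2 states, where 22.4% of all probes did not overlap. The count was 6 of 9 in replated against fresh cells, beside 25.6%, and 5 of 9 in replated against frozen cells, beside 33.8%. Without CCR2 the counts were 2, 4 and 3 of 7. The median log2 difference of these 7 probes was -0.03, 0.49 and 0.16 in the 3 comparisons, and that of all 9 was -0.06, 0.42 and 0.49, where 0.42 is the value of CCR2 ILMN_1769895 itself. Beside them, the median of all probes was 0.006, -0.003 and -0.007. The direction of calls over all probes moved with the scaling. In frozen against fresh cells 47.8% of called probes were higher, but 8.46% when arrays were centred on their median and 69.7% when centred on the median of kept probes. Between replated and frozen cells 54% were higher, against 84.6% and 38.3% under the same settings. Centring on the median shifted the median of all probes by -0.10, -0.02 and 0.08 in the 3 comparisons, and under it the CCR2 difference between frozen and fresh cells was -0.69.

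**Figure D3:**
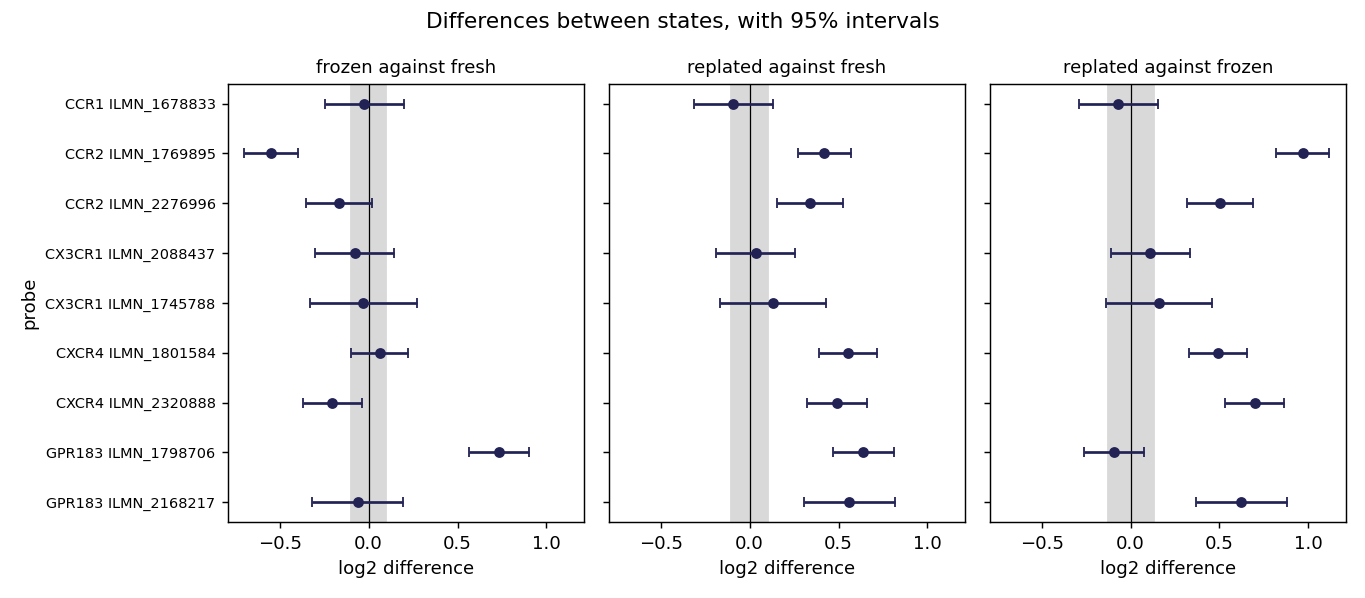
Log2 differences of the 9 kept receptor probes in the 3 comparisons, with 95% intervals from the limma fit and a grey band for the interquartile range of all 18102 kept probes. CCR2 ILMN_1769895 lies at -0.55, 0.42 and 0.97, both CXCR4 probes lie between 0.49 and 0.70 in the comparisons with replated cells, and the CCR1 and CX3CR1 intervals include 0.

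Where 2 probes of a gene were kept, their log2 difference within an array does not depend on how arrays are scaled to each other by a constant, and a shift in it shows unequal change of the probes. The bright CCR2 probe exceeded the dim one by a mean of 2.11 in fresh cells, 1.72 in frozen cells and 2.19 in replated cells. The frozen arrays read 1.77, 1.89 and 1.51, below all other 6. For CXCR4 the mean difference was 1.63, 1.89 and 1.69, and frozen arrays, from 1.82 to 1.97, lay above all others. GPR183 gave 0.61 for fresh, 1.41 for frozen and 0.69 for replated arrays, with frozen arrays at 1.55, 1.32 and 1.35 and the other 6 arrays from 0.47 to 0.83. CX3CR1 gave 3.21, 3.16 and 3.11, and its states overlapped. Normalization and background correction bend the scale for dim probes, and no test was made of these differences.

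**Figure D4:**
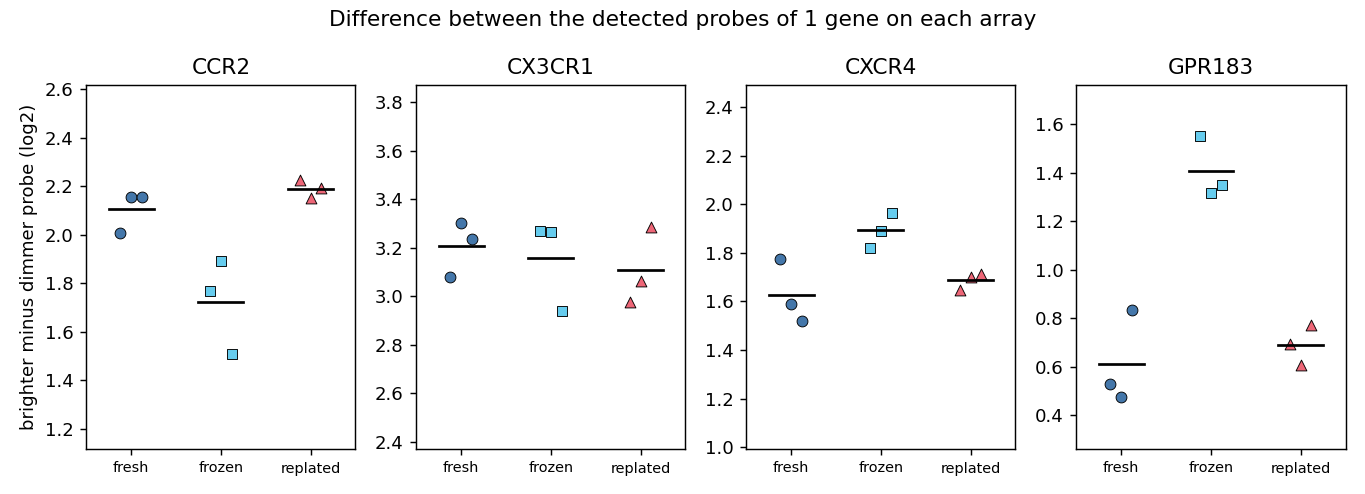
Log2 difference between the brighter and the dimmer kept probe of CCR2, CX3CR1, CXCR4 and GPR183 on each array, by state. Frozen arrays lie below the other 6 for CCR2, above them for CXCR4 and GPR183, and overlap with them for CX3CR1. Horizontal lines are means of 3 arrays, and the vertical axes span equal ranges with different origins.

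The rest of the pathway was read from lists of genes, each represented by its brightest kept probe. These lists and the marker lists below were drawn up with earlier results of these data known. The adjusted p-values of listed genes, also in frozen against fresh cells, are therefore not independent of that choice. Of 37 other chemoattractant receptors listed, 33 were on the array, 20 of these were detected on 0 arrays and 11 were tested. By limma 0 of 11 were called in frozen against fresh or in replated against fresh cells, with 1 of 11 at an unadjusted p under 0.05 in each, and the backgrounds were 1.02% and 4.13%. Their medians were -0.01 and -0.07, beside 0.006 and -0.003 for all probes. Here and below, counts at an unadjusted p are given only where no gene of a list was called. They have no share of all probes beside them, since the backgrounds are by adjusted p, and nothing is read from them. In replated against frozen cells 1 of 11 rose, CXCR3, the receptor for CXCL9 and CXCL10, by 0.42 (SE 0.10, adjusted p = 0.0252 in limma), a share of the list below the 11.6% of all probes called. The list median was 0.05. The CXCR3 difference ranged from 0.22 to 0.82 over the alternatives, and its call was lost without frozen replicate 1 or 2 or replated replicate 2 (adjusted p of 0.0507 to 0.0812).

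Of 30 genes for ligands and their synthesis, 15 were tested. In frozen against fresh cells 2 of 15 rose, where 1.02% of all probes were called, and the list median was 0.11. They were CCL3, a ligand of CCR1, by 1.00 (SE 0.17, adjusted p = 0.0244 in limma), and CPM, a carboxypeptidase that trims complement fragments, by 0.37 (SE 0.064, adjusted p = 0.0267). The CCL3 call was lost without fresh replicate 2 or 3 or frozen replicate 1 or 2 (adjusted p of 0.0671 to 0.0901) and with the values processed by the authors (adjusted p = 0.143), and the CPM call without any 1 of the 6 arrays of the comparison (adjusted p of 0.0591 to 0.0926). Centring arrays on their median brought the CPM difference to 0.22 (adjusted p = 0.166), and its other 3 kept probes, at 0.29, 0.31 and 0.12, were not called. In replated against fresh cells 2 of 15 rose, beside 4.13% of all probes called and with a list median of -0.04. They were ANXA1, whose product binds formyl peptide receptors, by 0.42 (SE 0.070, adjusted p = 0.0101) and C5, the precursor of the C5AR1 ligand, by 0.37 (SE 0.065, adjusted p = 0.0135). The C5 call was lost without replated replicate 3 (adjusted p = 0.0636) and when arrays were centred on their median (adjusted p = 0.072). In replated against frozen cells 2 of 15 rose and 5 fell, with a list median of -0.01, where 6.25% of all probes were called higher and 5.32% lower. CCL3 was detected on 1 of 3 replated arrays and fell by 1.43 (SE 0.17, adjusted p = 0.000848). That CCL3 difference was -0.82 at an offset of 50 and -3.0 with the values processed by the authors, and the frozen against fresh difference likewise ranged from 0.56 to 1.63. CCL3L3, a near-identical copy of CCL3 whose RNA a probe may share, fell by 1.05 (SE 0.16, adjusted p = 0.00393). CPM fell by 0.41 (SE 0.064, adjusted p = 0.00387), which was not called when arrays were centred on their median (adjusted p = 0.0511), and its other 3 kept probes differed by -0.18, -0.10 and 0.02. CAMP, the cathelicidin precursor, fell by 0.50 (SE 0.13, adjusted p = 0.0308), a call lost without frozen replicate 2 or 3 or replated replicate 2 or 3 (adjusted p of 0.0817 to 0.0962).

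Of 40 genes for G proteins and downstream effectors, 32 were tested and most did not pass. By limma 0 of 32 were called in frozen against fresh cells, where 1.02% of all probes were called, with 4 at an unadjusted p under 0.05. In replated against fresh cells 1 rose, MAPK3, the kinase ERK1, by 0.28 (SE 0.062, adjusted p = 0.0359 in limma), a call lost without any 1 of the 6 arrays of the comparison (adjusted p of 0.0801 to 0.109) and when arrays were centred on their median (adjusted p = 0.176). The other kept MAPK3 probe differed by 0.12 (adjusted p = 0.403). The background there was 4.13%. Between replated and frozen cells 3 rose and 1 fell, beside a background of 11.6%. The GTPase CDC42, which sets cell polarity, rose by 0.52 (SE 0.094, adjusted p = 0.00705), while its other kept probe differed by -0.01. RAC2, the GTPase of the leukocyte oxidase and of migration, rose by 0.35 (SE 0.072, adjusted p = 0.0131). PTK2B, the kinase PYK2, rose by 0.31 (SE 0.080, adjusted p = 0.0335), but not without frozen replicate 2 or 3 or any 1 replated replicate (adjusted p of 0.0625 to 0.103), and its other kept probe differed by 0.26 (adjusted p = 0.336). GNAI1, an inhibitory G protein subunit, was detected on 0 of 3 replated arrays, where its level was lower (adjusted p = 0.0215 in limma). At the main settings the estimate was 1.31-fold or more, with the replated arrays raised to the dimmest detected signal. Over the alternatives the GNAI1 log2 difference ranged from -1.07 to -0.22, so 1.31-fold is not a bound across settings. The GNAI1 call was lost without frozen replicate 1 or 2 or replated replicate 1 or 3 (adjusted p of 0.0614 to 0.0713). The list medians were -0.02, 0.06 and 0.06.

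Of 26 genes for receptor desensitisation and trafficking, 22 were tested, with list medians of -0.001, -0.04 and -0.02. Of these 22, 1 rose and 1 fell in frozen against fresh cells, 1 rose and 1 fell in replated against fresh cells, and 2 rose and 2 fell in replated against frozen cells. The share of all probes called was 1.02%, 4.13% and 11.6%. In frozen against fresh cells RGS2, which speeds G protein shut-off, rose by 0.76 (SE 0.10, adjusted p = 0.00901 in limma), and RAB5A, a GTPase of early endosomes, fell by 0.54 (SE 0.082, adjusted p = 0.0155). The RGS2 call was lost without fresh replicate 2 (adjusted p = 0.0534), and the RAB5A call without fresh replicate 2 or 3 or frozen replicate 2 (adjusted p of 0.059 to 0.0641). In replated against fresh cells RGS16, another RGS protein, fell by 0.98 (SE 0.15, adjusted p = 0.00756), and ARRB1, which encodes an arrestin, rose by 0.42 (SE 0.064, adjusted p = 0.00721), while its other 2 kept probes differed by -0.09 and -0.03. Relative to frozen cells, in replated cells RGS2 fell by 0.85 (SE 0.10, adjusted p = 0.00111) and RGS16 by 0.94 (SE 0.15, adjusted p = 0.00464). RGS16 was detected on 2 of 3 replated arrays, and over the alternatives its differences ranged from -1.86 to -0.53 against fresh and from -1.82 to -0.51 against frozen cells. RAB5A rose by 0.30 (SE 0.082, adjusted p = 0.041) and ARRB1 by 0.26 (SE 0.064, adjusted p = 0.0294), with its other probes at -0.16 and -0.12. The RAB5A call was lost without any 1 of 8 arrays (adjusted p of 0.0503 to 0.136), all but fresh replicate 1. The ARRB1 call was lost without any 1 of the 6 arrays of the comparison (adjusted p of 0.0505 to 0.0914).

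The genes whose pattern over the 9 arrays was most like that of the bright CCR2 probe were found by the root mean square of the differences between array-wise log2 values centred on each gene's mean, over 10919 genes. The nearest were TXNIP (0.062), NAPEPLD (0.12), DDIT4 (0.12), RSRP1 (0.12) and CCNG1 (0.15), where CCR2's own root mean square about its mean was 0.40. TXNIP, a thioredoxin-binding protein that restrains glucose uptake, differed by -0.59 in frozen minus fresh, 0.29 in replated minus fresh and 0.89 in replated minus frozen cells. DDIT4, an inhibitor of mTOR complex activity, differed by -0.60, 0.51 and 1.12. NAPEPLD encodes a phospholipase that makes acylethanolamines, and CCNG1 a cyclin that p53 induces. These are descriptions over 9 arrays in 3 states, with no test. Of the 5 genes, 4 stayed among the 5 nearest with an offset of 50, 3 without background correction, 5 under median centring and 3 with the values processed by the authors, where the farthest ranked 60. Among the receptor probes, CXCR4 ILMN_2320888 was at 0.17, and 0.0824% of genes lay closer. The brighter CXCR4 probe, ILMN_1801584, was at 0.28 (3.83% closer). CX3CR1 ILMN_2088437 was at 0.38 (29.5% closer), CX3CR1 ILMN_1745788 at 0.38 (32.8% closer) and CCR1 at 0.44 (65.1% closer). The second CCR2 probe was at 0.23 (0.998% closer), GPR183 ILMN_2168217 at 0.24 (1.72% closer) and GPR183 ILMN_1798706 at 0.56 (96.9% closer).

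**Figure D5:**
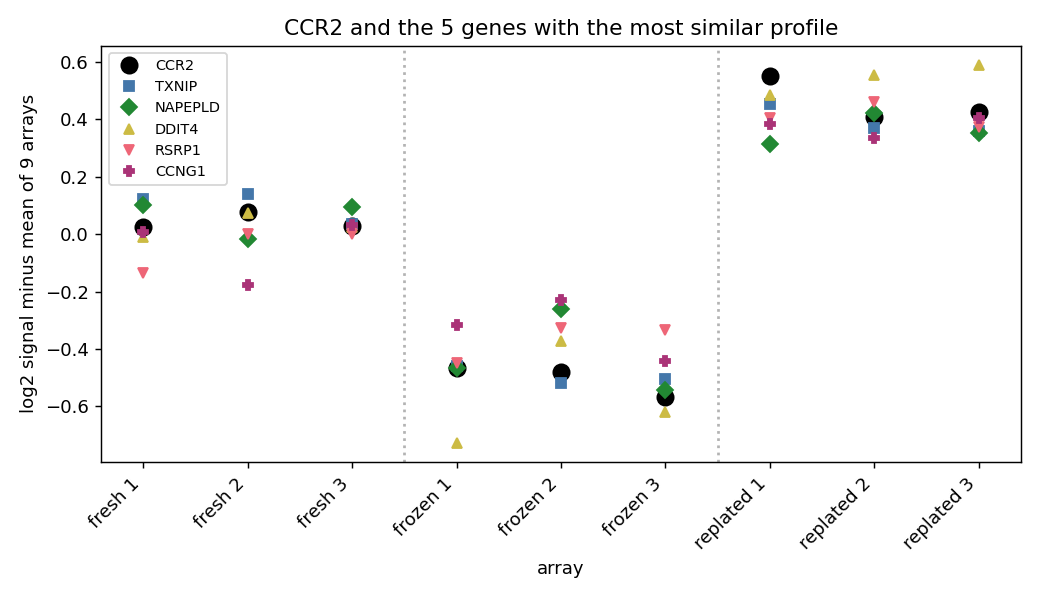
Log2 signal on each of the 9 arrays, centred on each gene's mean over arrays, for CCR2 ILMN_1769895 and the 5 genes nearest to it. All 6 are lowest on frozen arrays and highest on replated arrays, with TXNIP closest at a root mean square difference of 0.062.

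The labelled cell type was checked against marker genes. CD14, CD68, CSF1R, ITGAM, LYZ and SPI1 were detected on all 9 arrays, as were the immature myeloid genes MPO, ELANE, AZU1, PRTN3, CTSG, MYB and KIT. MRC1 and FCN1, which mark macrophages and classical monocytes, were detected on 0 arrays. CD34, the remaining immature myeloid gene on the list, was detected on 1 array. Of the monocyte and macrophage list, MSR1 and SELPLG were also detected on 1 array each, and CD163 and MARCO on 7 each. Of 14 monocyte and macrophage genes tested, 0 were called by limma in frozen against fresh cells (5 at an unadjusted p under 0.05), 4 rose in replated against fresh cells and 6 in replated against frozen cells. By adjusted p the share of all probes called was 1.02%, 4.13% and 11.6%, and the list medians were -0.07, 0.07 and 0.14. Nothing is read from the unadjusted count. CD14, CSF1R, ITGAM and SPI1 differed by 0.10, -0.02, 0.03 and -0.09 in replated minus fresh cells and were not called. LYZ, encoding lysozyme, rose by 0.85 over fresh cells (SE 0.064, adjusted p = 6.99e-05 in limma) and by 0.86 over frozen cells (adjusted p = 3.31e-05). CYBB, a subunit of the phagocyte oxidase, rose by 0.63 (SE 0.11, adjusted p = 0.0141) and 0.70 (adjusted p = 0.00464), the former lost without fresh replicate 1 or replated replicate 1 (adjusted p of 0.0527 to 0.0564). Over the alternatives the CYBB differences ranged from 0.37 to 0.92 and from 0.41 to 1.04. MARCO, a scavenger receptor, rose by 0.50 over frozen cells (SE 0.081, adjusted p = 0.00456) and by 0.37 over fresh cells (adjusted p = 0.0327). The rise of MARCO over fresh cells was not called without fresh replicate 2 or 3 or any 1 replated replicate (adjusted p of 0.0664 to 0.106). It was also lost with an offset of 50 (0.19, adjusted p = 0.0612), without background correction (0.19, adjusted p = 0.0683) and with the values processed by the authors (0.85, adjusted p = 0.0696), and against frozen cells the MARCO difference ranged from 0.25 to 1.27. CD36, a lipid scavenger receptor, rose by 0.39 over fresh cells (SE 0.074, adjusted p = 0.0202), and ITGAX, an integrin subunit, by 0.61 over frozen cells (SE 0.15, adjusted p = 0.0275). The CD36 call was lost without fresh replicate 1 or 2 or replated replicate 1 or 3 (adjusted p of 0.0659 to 0.0763), and the ITGAX call without frozen replicate 1 or 2 or replated replicate 2 or 3 (adjusted p of 0.0712 to 0.086). The other kept CD36 probe differed by 0.31 over fresh cells and was not called (adjusted p = 0.06 in limma). The summed background-corrected signal of the 14 genes was 12702 to 12783 on fresh, 12014 to 12596 on frozen and 15301 to 15454 on replated arrays. Most of that difference was LYZ, which alone gave 2408 to 2518 on fresh, 2410 to 2491 on frozen and 4239 to 4592 on replated arrays. The sum of the other 13 genes was 10184 to 10360, 9604 to 10184 and 10710 to 11215.

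By limma 0 of 7 immature myeloid genes tested were called in any comparison, with 1, 0 and 0 at an unadjusted p under 0.05, and their summed signal was 64463 to 66807 on fresh, 67645 to 70241 on frozen and 66301 to 66990 on replated arrays. Of 17 markers of other cell types on the array, 11 were detected on 0 arrays, among them CD3E, CD3D and CD8A of T cells, VWF of endothelium, EPCAM and KRT18 of epithelium, COL1A1 of fibroblasts, PPBP and PF4 of platelets and HBB of red cells. Of the 5 tested, 0 were called by limma in frozen against fresh cells (1 at an unadjusted p under 0.05, background 1.02%), 2 rose in replated against fresh and 3 in replated against frozen cells, beside 4.13% and 11.6% of all probes. NKG7, a granule gene of cytotoxic lymphocytes, rose by 0.50 (SE 0.066, adjusted p = 0.00333 in limma) and 0.39 (adjusted p = 0.0053). CD79B, of the B cell receptor, rose by 0.44 over frozen cells (SE 0.075, adjusted p = 0.00583) and by 0.37 over fresh cells (adjusted p = 0.0239). The latter call was lost without any 1 fresh replicate or replated replicate 2 or 3 (adjusted p of 0.0514 to 0.0778). The other kept CD79B probe was not called over frozen cells (0.33, adjusted p = 0.163 in limma) or over fresh cells (0.54, adjusted p = 0.0664). PECAM1, an adhesion molecule of endothelium that monocytes also carry, rose by 0.26 over frozen cells (SE 0.077, adjusted p = 0.0496), a call lost without any 1 of 8 arrays, all but replated replicate 2 (adjusted p of 0.0618 to 0.15). The summed signal of these 5 genes was 1454 to 1484 on fresh, 1319 to 1446 on frozen and 1620 to 1802 on replated arrays. CD79A and MS4A1 differed by -0.002 and -0.10 in replated minus fresh cells and were not called. The list medians were -0.06, 0.13 and 0.26. LYZ, CYBB, MARCO, CD79B and NKG7 were higher in replated cells, where CCR2, CXCR4 and GPR183 were also higher than in fresh cells, and their part in the receptor results was not tested. At the main settings no gene of the 3 marker lists was called in frozen against fresh cells, where 1.02% of all probes were called. Nothing is read from that count. Over the alternatives, 0 to 2 monocyte and macrophage genes were called there. In RNA from a whole culture, fewer cells of a type and less RNA per cell cannot be told apart.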

How the data were processed

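RNA of THP-1 cells in 3 states was hybridised to 9 Illumina bead arrays, grouped by the sample titles. The main deposited table holds non-normalized probe intensity, per the file headers. Beside each signal the authors deposited a detection score, used here as 1 minus the detection p because it rises with the signal; the sources used here do not give its calculation. A second deposited table holds intensity processed by the authors and served as an alternative. The main table had 0 unused sample columns.

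In limma 3.58.1 (R 4.3.3) background was corrected by normexp with an offset of 16 and negative controls inferred from the detection p. Arrays were then quantile-normalized and put on the log2 scale, which understates differences of dim probes. Probes with a detection p under 0.05 on at least 3 arrays were kept (18102). One lmFit and eBayes fit used all 9 arrays (residual df 6), and p-values were adjusted over kept probes by Benjamini-Hochberg. A call meant an adjusted p under 0.05. Counts of listed genes at an unadjusted p under 0.05 have no share of all probes beside them, and nothing is read from them. Precision is limited by the number of arrays.

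Of the probes, 27578 had 1 gene symbol in the annotation, 13 had several and 21212 were not listed. The Entrez ID gave current symbols for 27541. Every member probe is named, with up to 4 called genes of each list and comparison and the 5 genes most like CCR2. Members and lists were chosen with earlier results of these data known. Alternatives changed the background, scaling, filter, value table, replicate block, samples fitted, array weights and each array in turn; centring on kept probes was chosen after seeing the data.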

Additional observations from a re-analysis of the deposited data

How the results depend on the processing

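The count of called receptor probes stayed within 1.5 times in all alternatives: 2 to 3 in frozen against fresh, 4 to 6 in replated against fresh and 5 in replated against frozen cells. No called value changed sign. The CCR2 ILMN_1769895 difference between frozen and fresh cells ranged from -0.69 to -0.52. Over all probes, the count called in frozen against fresh cells was 184, against 542 with an offset of 50, 562 without background correction, 827 with median centring (70 higher, 757 lower), 287 with centring on kept probes (200 higher, 87 lower), 103 with the authors' values, 366 with a detection p under 0.01 on all 9 arrays and 54 with only the states compared. The share of higher calls, 47.8%, was 34.5%, 33.5%, 8.46%, 69.7%, 35.8% and 66.7% under an offset of 50, no background correction, median centring, centring on kept probes, the strict filter and only the states compared. In replated against fresh cells the count was 747, against 1333, 1303, 468 with median centring, 427 with the authors' values and 1199 with the strict filter. Leaving out 1 array gave 49 to 138, 244 to 682 and 1000 to 2017 calls in the 3 comparisons (lowest without fresh replicate 2, replated replicate 3 and replated replicate 3), where the full count of the last was 2095. The causes were not tested. Calls of listed genes also depended on the setting. In replated against frozen cells CAMP, ITGAX, PECAM1 and RAB5A were not called without the filter (adjusted p of 0.0524 to 0.0571 in limma). With the authors' values these and PTK2B were not called there (adjusted p of 0.0514 to 0.0703). Centring on kept probes ended the PECAM1 call (adjusted p = 0.0946). Median centring ended the CD36 call in replated against fresh cells (adjusted p = 0.0687).

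Same-numbered replicates did not deviate together (correlations of -0.0476 to 0.0473), and the numbers were not used to pair the samples. Whether same-numbered samples share a culture or batch is not stated, and these correlations cannot settle it. A replicate block gave 104, 444 and 1740 calls over all probes and left the called receptor probes at 2, 5 and 5. Under it 7 calls of listed genes were lost (adjusted p of 0.0525 to 0.0722): CPM in frozen against fresh, MAPK3 and MARCO in replated against fresh, and CAMP, PECAM1, RAB5A and ARRB1 in replated against frozen cells. A fit of only the states compared ended the calls of CCL3, CPM and RAB5A in frozen against fresh cells (adjusted p of 0.0512 to 0.079 in limma). It also ended those of MAPK3 and MARCO in replated against fresh cells (adjusted p of 0.0501 to 0.0625). In replated against frozen cells it ended those of PTK2B, CAMP, ITGAX, PECAM1 and RAB5A (adjusted p of 0.052 to 0.0835).

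Background limits dim probes: the 8 receptor probes that were not kept have no measured difference between states.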
